A study of Homo sapiens with 6 samples.

Results

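Nuclear receptors are transcription factors, many of which bind small lipid-soluble ligands such as bile acids, sterols, fatty acids, retinoids and steroid hormones. The family was taken by matching gene symbols, which gave 38 of the 20026 genes in the deposited table. HepG2, a human liver cancer cell line, was measured by bulk RNA-seq in 3 groups of 2 libraries: a scramble control (Scr, which the labels call WT), a knockout of miR-23a (miR-23a KO) and a knockout of miR-27a (miR-27a KO). The study describes clones of each KO, but which of them the libraries came from is not given in the sources used here, so the edit and the choice of clone cannot be told apart. The labels also do not say whether the 2 libraries of a group came from separate cultures, so the p-values measure only the spread between these libraries, which may be technical. Loss of a message within cells and loss of the cells that carry it cannot be told apart in bulk RNA.

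In liver cells several of these receptors form a circuit. FXR (*NR1H4*) senses bile acids and induces SHP (*NR0B2*), a receptor without a DNA-binding domain that represses other receptors, among them LRH-1 (*NR5A2*), an activator of bile acid synthesis genes. PXR (*NR1I2*) and CAR (*NR1I3*) turn on drug-metabolizing enzymes, the LXRs (*NR1H2*, *NR1H3*) sense oxysterols, the PPARs sense fatty acids, and the RXRs are shared dimer partners.

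The deleted miRNAs pair with messages through bases 2 to 8, which are shown in capitals because they define the sites searched for in the receptor genes. In RefSeq coordinates on GRCh38.p14, miR-23a-3p is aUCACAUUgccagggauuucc (chr19:13836595-13836615) and miR-27a-3p is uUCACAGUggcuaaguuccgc (chr19:13836447-13836467), both on the minus strand. The related miR-23b-3p (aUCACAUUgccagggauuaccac) and miR-27b-3p (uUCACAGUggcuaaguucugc) come from genes on chromosome 9 and carry the same seeds. In the longest 3'-UTR of each gene (GENCODE release 29, GRCh38), the site AATGTGA occurs in 10 of the 38 receptor genes (26.3%), against 19.3% of 15891 genes with an annotated 3'-UTR. The site ACTGTGA occurs in 12 receptor genes (31.6%), against 16.7% of all genes. The receptor genes have longer 3'-UTRs, with a median of 1708.5 bases against 1224. Both sites occur in *HNF4G*, *NR2C1*, *PGR*, *PPARA* and *RORA*. Among receptors whose values are given further on, the *NR5A2* 3'-UTR has 1 miR-27a site, tgtattgcaaACTGTGAatcaaagg (site at chr1:200174418-200174424), and so do *NR2C2*, ctccatcataACTGTGAggctggat (chr3:15044115-15044121), *NR1D2*, aatattttaaACTGTGAagaacttt (chr3:23978280-23978286), and *NR2F6*, ttttttaaagACTGTGAaatgtttg (chr19:17232214-17232220). *NR6A1* has 3 miR-23a sites, the nearest to the stop codon being cagtttacagAATGTGAagatgttt (chr9:124522429-124522435), and *VDR* has 1, cctctgcctcAATGTGAatcagacc (chr12:47842238-47842244).

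Between 33 and 36 of the 38 receptor genes had a count in each library, and 30 were counted in every library. *RXRG*, *RARB*, *ESR1*, *PGR*, *ESRRG* and *NR4A2* stayed at 5 counts or fewer in all 6 libraries. To compare levels between genes, counts scaled to library size (CPM) were divided by the length of the longest transcript in kilobases. On that scale the most abundant receptor messages in Scr were *NR0B2* (185 CPM per kilobase), *NR2F6* (86.8), a COUP-family repressor also called EAR2, *RXRA* (82.5), the main RXR of liver, *ESRRA* (34.9), an orphan regulator of mitochondrial genes, and *NR1H2* (23.8). The top 3 held 64.6% of the summed receptor level in Scr, against 55.9% in miR-27a KO and 64.4% in miR-23a KO. In miR-27a KO the order of these 3 was *NR0B2* (92.6 CPM per kilobase), *RXRA* (72.8) and *NR2F6* (59.8). Such levels depend on the annotated length, which for *RXRA* was 1846 bases with a 3'-UTR of 405, and other lengths were not tried. Over 10 CPM per kilobase, there were 12 receptor genes in Scr, 8 in miR-27a KO and 10 in miR-23a KO.

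**Figure D1:**
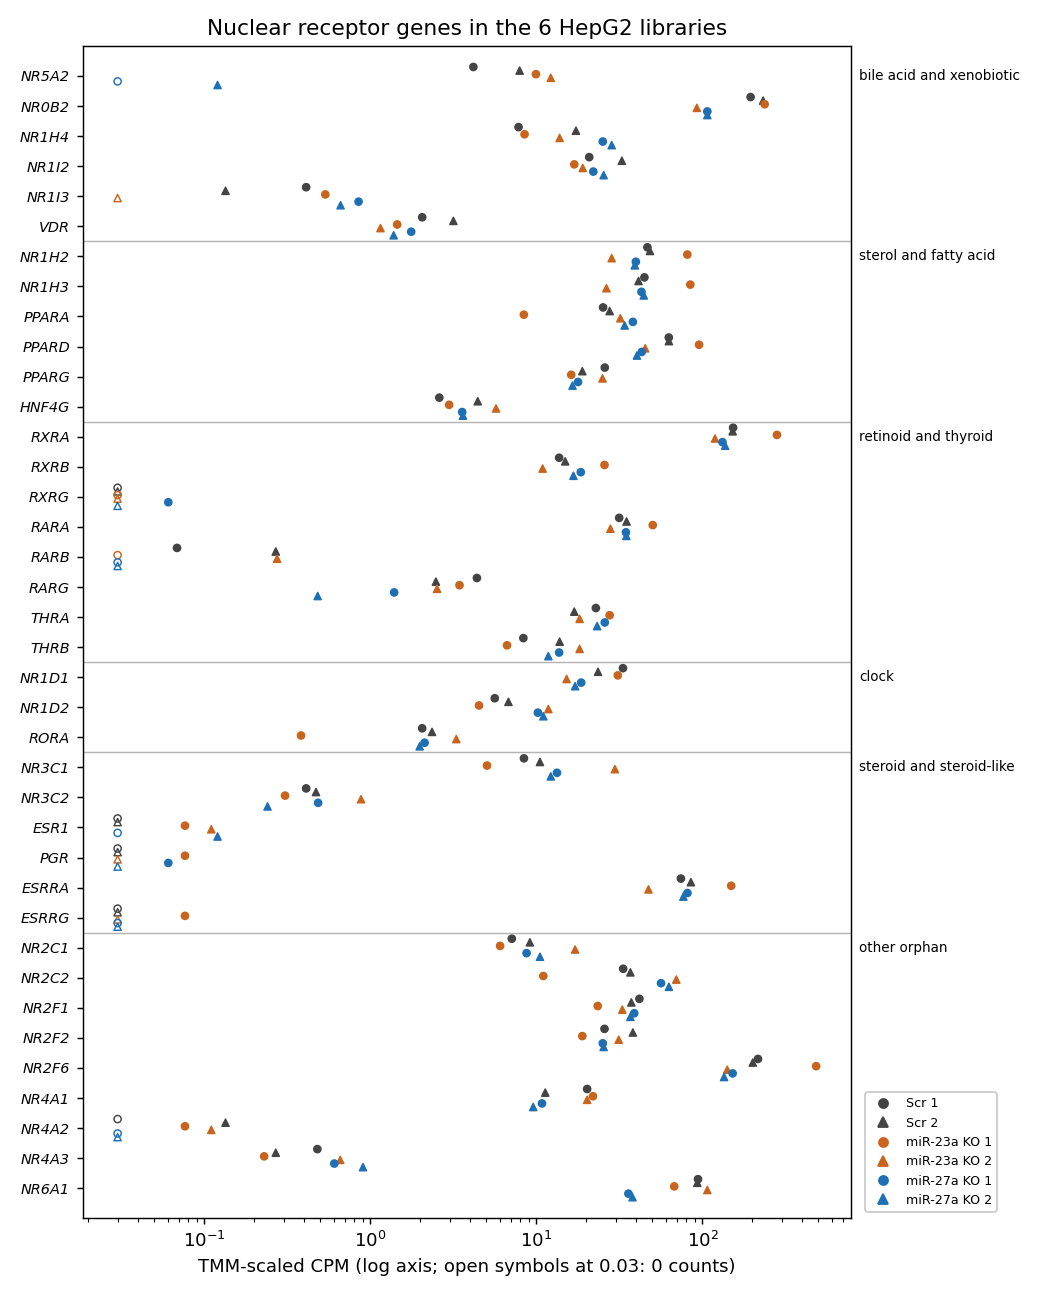
Level of each nuclear receptor gene in each of the 6 libraries, in CPM on a log axis, not divided by transcript length.

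The 2 miR-23a KO libraries differed from each other over the whole table, the receptor genes included. Taking genes counted 40 times or more over both libraries, 47.8% were more than 2-fold apart in miR-23a KO, 6.66% in Scr and 1.35% in miR-27a KO. For the receptor genes these counts were 16 of 29, 1 of 29 (*NR1H4*) and 0 of 27, so the gap is not one of receptor genes alone. Higher in replicate 1 were 9 of the 16 (*NR0B2*, *NR1H2*, *NR1H3*, *PPARD*, *RXRA*, *RXRB*, *NR1D1*, *ESRRA* and *NR2F6*), by 2.03 to 3.43 times. These have a transcript GC content of 55.4% to 71.1%. Higher in replicate 2 were 7 (*PPARA*, *THRB*, *NR1D2*, *RORA*, *NR3C1*, *NR2C1* and *NR2C2*), by 2.58 to 7.04 times, with a GC content of 35.8% to 47.6%. Across the 29 receptor genes, which are not independent replicates, the log2 difference between the miR-23a KO libraries rose with GC content (Pearson's r 0.85, Spearman's rho 0.85; 0.66 and 0.68 over 12851 genes). In the Scr pair the correlations were 0.54 and 0.57 (0.39 and 0.46 over all these genes), and in the miR-27a KO pair 0.36 and 0.33 (0.04 and 0.1). Transcript length ran the other way in the miR-23a KO pair (r -0.81, rho -0.81; -0.45 and -0.48 over all these genes). Whether GC content, length or something else that differs between the 2 libraries underlies the gap was not tested.

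**Figure D2:**
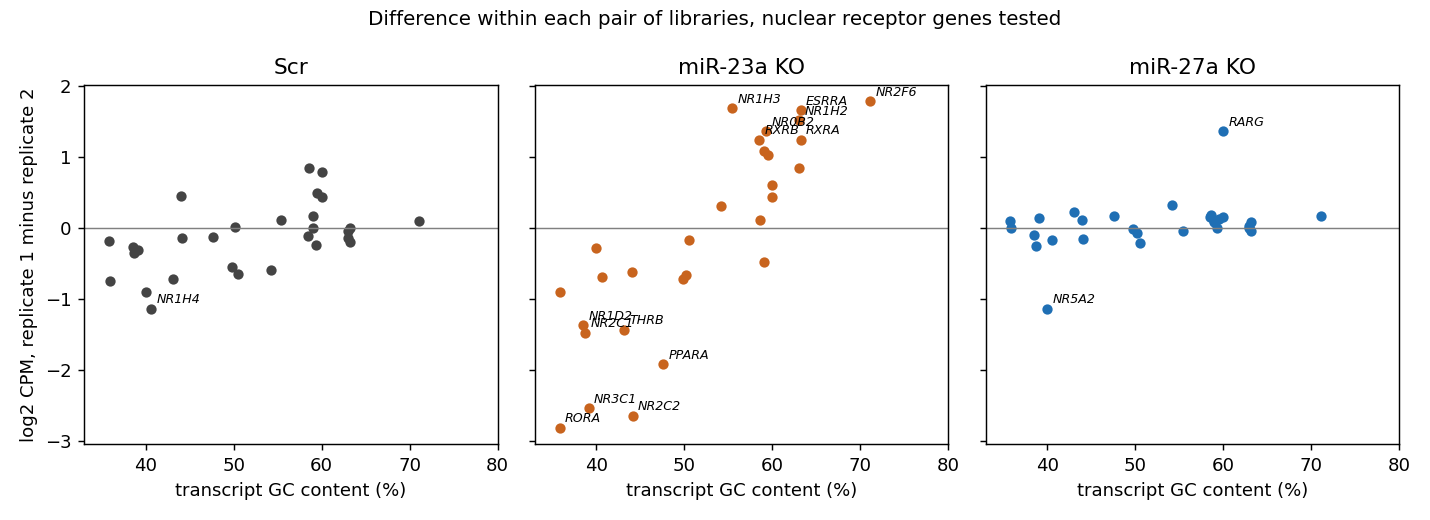
Log2 difference between replicate 1 and replicate 2 of each group against the GC content of the transcript, for the nuclear receptor genes tested in every comparison.

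In miR-27a KO cells the message of LRH-1 was nearly lost and that of SHP was lower than in Scr, at about the same level in both libraries. The germ cell receptor *NR6A1*, *PPARD* and *NR2F6* were lower too, while *NR2C2* was higher. Of 38 receptor genes, 30 passed the low-count filter, and those that did not (*RXRG*, *RARB*, *NR3C2*, *ESR1*, *PGR*, *ESRRG*, *NR4A2* and *NR4A3*) had 16 counts or fewer in every library. By edgeR's quasi-likelihood test, Benjamini-Hochberg adjusted over all genes, 1 receptor gene was higher and 5 were lower at an adjusted p under 0.05, where 4.91% of 13820 genes were higher and 9.12% lower. At a fold change over 1.5 with an adjusted p under 0.001, the study's criteria, 0 receptor genes passed, as against 0.0145% of all genes in each direction. The study names no test for its q-value and reports far more genes in both KOs at these cut-offs. Its counts and those of edgeR given here are therefore not of the same test. At an unadjusted p under 0.05 there were 4 higher and 9 lower, against 13.8% and 18.4% of all genes, and DESeq2 called 2 and 5 at an adjusted p under 0.05, against 5.28% and 9.49%. Without regard to p, the miR-27a KO libraries were both higher than the Scr libraries for 8 of the 30 tested receptor genes (33.4% of all tested genes) and both lower for 13 (31.0%). Leaving out a library changed the count, for receptor genes as for all genes: 5 higher and 10 lower without Scr replicate 1 (18.0% and 19.8% of all genes), 6 and 11 without Scr replicate 2 (23.8% and 25.6%), and 0 and 3 without miR-27a KO replicate 1 (0.776% and 2.19%) or without replicate 2 (0.574% and 1.76%), where the lone remaining library is taken to vary like the others. A fit of all 6 libraries together, which shares the wide spread of the miR-23a KO pair, called 0 higher and 1 lower (*NR5A2*), against 0.0212% and 0.431% of all genes.

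**Figure D3:**
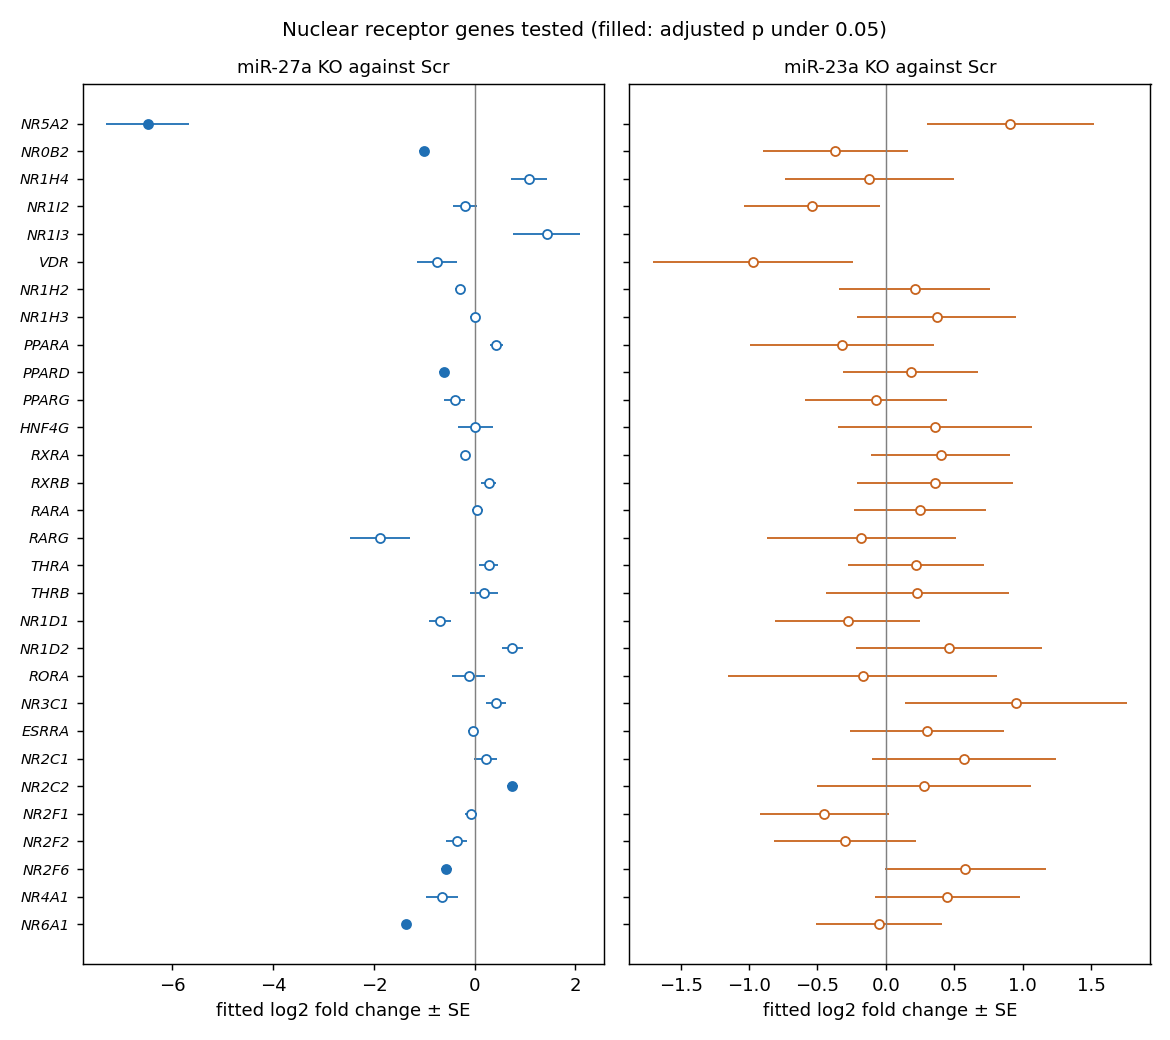
Log2 fold change of each tested nuclear receptor gene in miR-27a KO and in miR-23a KO against Scr, with standard errors and the genes called at an adjusted p under 0.05.

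The message of LRH-1, *NR5A2* (gene 2494), was counted 0 and 2 times in miR-27a KO, 61 and 118 in Scr, and 130 and 222 in miR-23a KO. The libraries of the 3 groups do not overlap, with miR-27a KO near 0, and the higher values in miR-23a KO were not called against Scr in any of 11 alternatives. The miR-27a KO level was 0.995% of Scr (95% counting interval 0.12% to 3.65%), an adjusted p of 0.0141 in edgeR's quasi-likelihood test (Benjamini-Hochberg adjusted), and between 1.04e-06 and 0.0491 in 11 alternative analyses. Such intervals cover counting error only. Without miR-27a KO replicate 1 the ratio was 1.98% (0.238% to 7.27%), and without replicate 2, at 0 counts and a floor of 3 over the group, *NR5A2* was at least 33.4-fold lower than in Scr. SHP, *NR0B2* (gene 8431), was at 195 and 232 CPM in Scr and 107 and 107 in miR-27a KO. The groups did not overlap, with a log2 fold change of -1.01, standard error 0.10, at an adjusted p of 0.00875 by edgeR's quasi-likelihood test (Benjamini-Hochberg adjusted). That value was 0.0323 and 0.0449 without miR-27a KO replicate 1 or 2, in a range of 4.72e-10 to 0.751 over 11 alternatives. FXR itself, *NR1H4*, went the other way, at 7.8 and 17.3 CPM in Scr and 25.1 and 28.4 in miR-27a KO. Both miR-27a KO libraries are the higher ones. Its log2 fold change of 1.08 (standard error 0.36) did not pass edgeR's threshold after Benjamini-Hochberg adjustment (0.112), and it was called higher by DESeq2, with the replicate number as a block and without Scr replicate 1 (log2 fold change 0.63) or replicate 2 (1.76).

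CAR, *NR1I3*, was scarce, at 0.41 and 0.134 CPM in Scr and 0.848 and 0.661 in miR-27a KO. It was higher in both miR-27a KO libraries (log2 fold change 1.43, standard error 0.66, and 2.42 without Scr replicate 1 or 0.84 without Scr replicate 2). *NR1I3* passed the low-count filter only in comparisons with miR-27a KO, where its counts were highest, so nothing is concluded from its change. The same limit holds for its place among the 8 tested receptor genes higher in both miR-27a KO libraries. The vitamin D receptor *VDR* was at 2.05 and 3.16 CPM in Scr against 1.76 and 1.38. Its groups did not overlap, and the log2 fold change was -0.75 (standard error 0.39, and -1.01 without Scr replicate 1 or -0.41 without Scr replicate 2). Neither gene passed edgeR's threshold after Benjamini-Hochberg adjustment, with values of 0.204 and 0.253. Counting the 6 receptors of bile acids and foreign compounds together (the 5 above and PXR), edgeR's quasi-likelihood test called 0 higher and 2 lower, against 4.91% and 9.12% of all genes. At an unadjusted p under 0.05 there were 1 higher and 2 lower, against 13.8% and 18.4% of all genes. DESeq2 called 1 higher and 2 lower, against 5.28% and 9.49%. The median log2 fold change of the 6 receptors was -0.47.

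Among the 6 sterol and fatty acid receptors, *PPARD* (gene 5467), the broadly expressed PPAR, was called lower. It was at 62.7 and 62.8 CPM in Scr and 43.1 and 40.3 in miR-27a KO, and the groups did not overlap. Its log2 fold change was -0.61 (standard error 0.09), and the adjusted p was 0.021 by edgeR's quasi-likelihood test (Benjamini-Hochberg adjusted). *PPARD* lost that call without miR-27a KO replicate 1 (0.197) or replicate 2 (0.304) and with offsets for GC content and length (log2 fold change -0.39), and its range over 11 alternatives was 0.000643 to 0.94. LXR beta, *NR1H2*, was at 46.6 and 48.3 CPM against 39.7 and 39.1 (log2 fold change -0.29, standard error 0.1), lower in both miR-27a KO libraries. It was called only without Scr replicate 1 (-0.30) or replicate 2 (-0.27), and offsets for GC content and length left -0.01. With all libraries *NR1H3*, *PPARA*, *PPARG* and *HNF4G* were not called by edgeR's quasi-likelihood test or DESeq2. Without Scr replicate 1 *PPARA* was called higher (log2 fold change 0.38, against 0.43 with it), and without Scr replicate 2 *PPARA* was called higher (0.49) and *PPARG* lower (-0.61, against -0.40).

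Of the 8 retinoid and thyroid hormone receptors, 6 were tested and 0 called by edgeR's quasi-likelihood test or DESeq2, with 0 higher and 2 lower at an unadjusted p under 0.05 (13.8% and 18.4% of all genes). *RXRA* was at 153 and 152 CPM in Scr and 132 and 137 in miR-27a KO, without overlap. The log2 fold change of -0.20 (standard error 0.08) became 0.08 with offsets for GC content and length, and *RXRA* was called lower without Scr replicate 1 (-0.18) or replicate 2 (-0.20). A retinoic acid receptor, *RARG*, was at 4.38 and 2.48 CPM in Scr and 1.39 and 0.481 in miR-27a KO. Both miR-27a KO libraries lay below both Scr libraries for *RARG*, with a log2 fold change of -1.88 (standard error 0.60). It was called lower with the replicate number as a block and without Scr replicate 2 (-2.24), and its value was -2.83 without miR-27a KO replicate 1 and -1.30 without replicate 2. With all libraries *RXRB*, *RARA*, *THRA* and *THRB* were not called by edgeR's quasi-likelihood test or DESeq2. *THRA* (log2 fold change 0.28) was called higher without Scr replicate 1 (0.53) and with the offsets and the block together (0.52), and *THRB* (0.19) without Scr replicate 2 (0.59). The last 1081 bases of *THRA* lie opposite *NR1D1* (chr17:40092787-40093867), and although the libraries were strand-specific, how strand was used in counting is not given in the sources used here, so a read there could have been counted for either gene.

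In the clock group, REV-ERB beta, *NR1D2*, a repressor of clock and metabolic genes, was at 5.61 and 6.78 CPM in Scr and 10.2 and 11 in miR-27a KO. Its groups did not overlap (log2 fold change 0.75, standard error 0.21), and it missed the threshold with a value of 0.0753 by edgeR's quasi-likelihood test after Benjamini-Hochberg adjustment. It was called without Scr replicate 1 (0.64) or replicate 2 (0.89), and offsets for GC content and length gave 0.49. *NR1D1* and *RORA* were not called by edgeR's quasi-likelihood test or DESeq2, and *NR1D1* (-0.69) was called lower with the replicate number as a block (-0.67) and without Scr replicate 1 (-0.40) or replicate 2 (-0.91). Of 6 steroid and steroid-like receptors only *NR3C1*, the glucocorticoid receptor, and *ESRRA* had enough counts to be tested, and *NR3C1* (log2 fold change 0.42) was called only without Scr replicate 2, as higher (0.58). The Scr libraries of *ESRRA* had 74.2 and 85.2 CPM, and those of miR-27a KO, at 81.2 and 76.7, fell between them. Its log2 fold change of -0.03 (standard error 0.1) turned to 0.23 with offsets for GC content and length, 0.07 without Scr replicate 2 and 0.02 without miR-27a KO replicate 2.

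Of the remaining orphans 7 were tested. By edgeR's quasi-likelihood test 1 was called higher and 2 lower, against 4.91% and 9.12% of all genes. *NR6A1* (gene 2649), known from germ cells and embryos as GCNF, was at 94 and 93.1 CPM in Scr and 35.8 and 37.9 in miR-27a KO. The groups are far apart, with a log2 fold change of -1.36, standard error 0.09, at the lowest adjusted p of the family, 0.00404 by edgeR's quasi-likelihood test (Benjamini-Hochberg adjusted). It was called in 10 of 11 alternatives, all but the fit of all 6 libraries. *NR2F6* (gene 2063) was at 216 and 201 CPM in Scr and 152 and 135 in miR-27a KO, without overlap (log2 fold change -0.56, standard error 0.10). *NR2C2* (gene 7182), the testicular receptor TR4, rose from 33.3 and 36.8 CPM to 56.3 and 62.8, again without overlap (log2 fold change 0.75, standard error 0.11). Adjusted p-values by edgeR's quasi-likelihood test (Benjamini-Hochberg adjusted) were 0.0265 for *NR2F6* and 0.0194 for *NR2C2*. Without miR-27a KO replicate 1 or 2 neither was called (*NR2F6* 0.152 and 0.334, in a range of 0.000352 to 0.991 over 11 alternatives, and *NR2C2* 0.0989 and 0.213, in a range of 0.000511 to 0.991), and offsets for GC content and length ended the call of *NR2F6*, at a log2 fold change of -0.29. The immediate early gene *NR4A1*, named after its values were seen, was at 20.2 and 11.3 CPM in Scr and 10.8 and 9.56 in miR-27a KO, lower without overlap (log2 fold change -0.65, standard error 0.31). It was called only without Scr replicate 2 (-1.01), and its value was -0.15 without Scr replicate 1. Excluding *NR4A1*, the 15 other tested receptor genes had log2 fold changes from -0.69 (*NR1D1*) to 0.43 (*PPARA*) and 0 calls, and *PPARA* came closest, with an adjusted p of 0.081 in edgeR's quasi-likelihood test (Benjamini-Hochberg adjusted). Leaving out a Scr library raised the number of calls among all genes as among these 15. *NR1D1*, *PPARA*, *PPARG*, *THRA*, *THRB* and *NR3C1* were then called, with values given above. Without Scr replicate 1 *NR1I2* (-0.47, against -0.19) and *NR2F2* (-0.60, against -0.36) were called lower too.

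**Figure D4:**
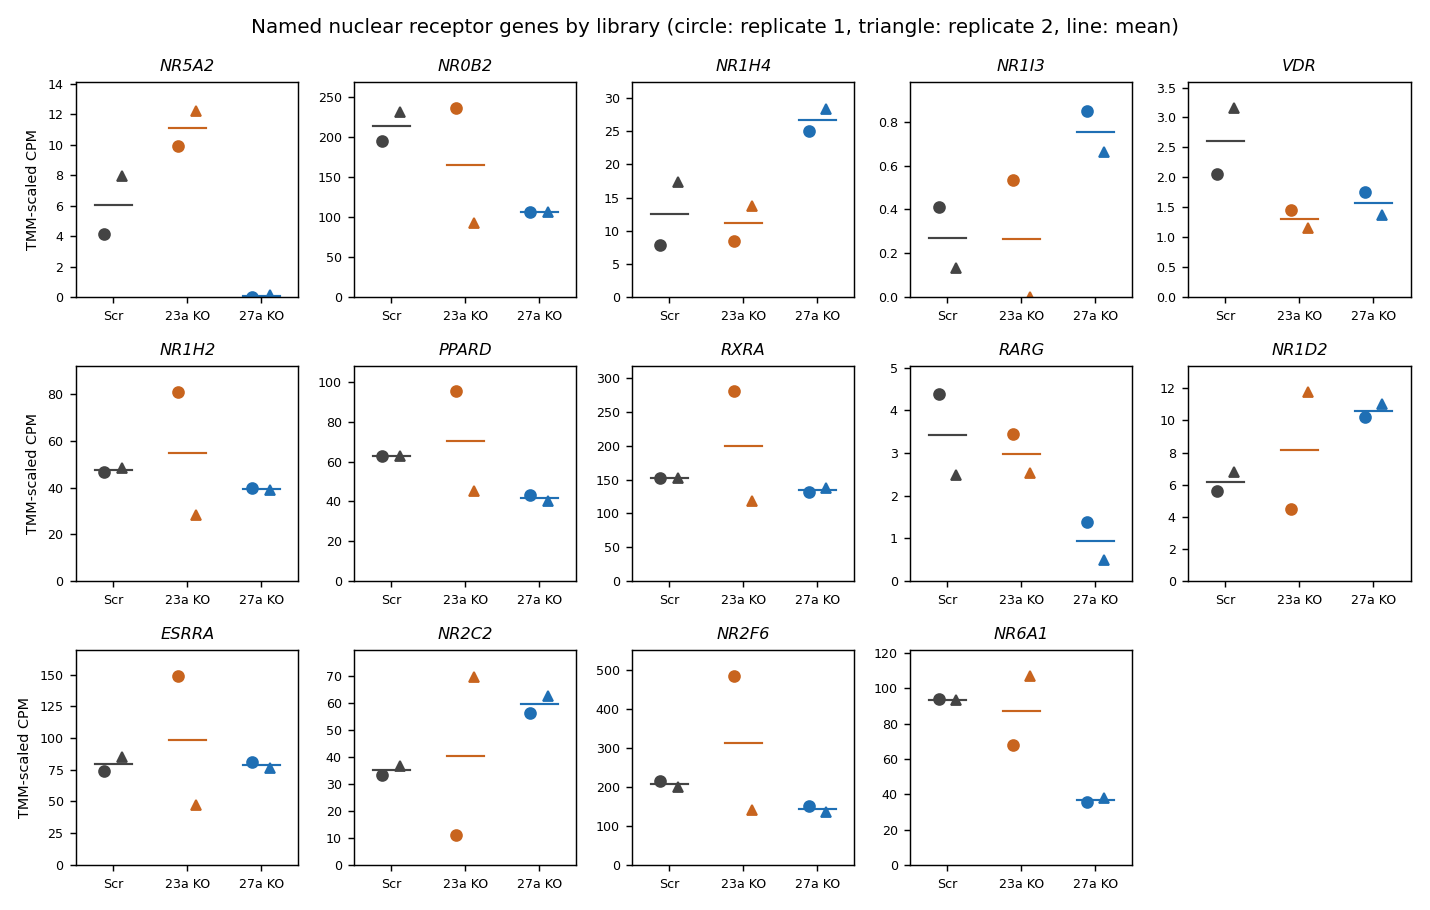
CPM in every library for the named nuclear receptor genes.

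In miR-23a KO cells no receptor gene stood clearly apart from Scr. Of 29 tested, edgeR's quasi-likelihood test (Benjamini-Hochberg adjusted) called 0 higher and 0 lower at an adjusted p under 0.05, and 0 at the study's criteria, as for all 13786 genes (0% each way by both rules). At an unadjusted p under 0.05 there were 0 receptor genes, against 0.856% of all genes higher and 1.55% lower, and DESeq2 called 0, against 0.0320% and 0.377%. The filter left out *NR1I3* besides the 8 genes left out above. The miR-23a KO libraries were both higher than the Scr libraries for 2 of the 29, against 9.91% of all tested genes, and both lower for 3, against 13.7%. Measured from the mean of Scr, 23 of the 29 receptor genes had 1 miR-23a KO library above and 1 below it, against 2 in miR-27a KO. The share over all genes is not given, and the gap between the miR-23a KO libraries ran over the whole table. Calls appeared when a miR-23a KO library was left out, among all genes as among receptor genes. Without replicate 1, where 2.34% of all genes were called higher and 1.78% lower, *NR3C1* was higher (log2 fold change 1.65) and *NR0B2* lower (-1.21). Without replicate 2 (12.0% and 6.60%), *NR1H2* (0.75), *NR1H3* (0.95), *RXRA* (0.86), *ESRRA* (0.88) and *NR2F6* (1.19) were higher and *PPARA* (-1.67) and *NR2C2* (-1.69) lower.

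The same receptors show the gap between the miR-23a KO libraries. *NR2F6* was at 484 CPM in miR-23a KO replicate 1 and 141 in replicate 2, on both sides of its Scr values of 216 and 201. *RXRA* (281 and 119 CPM, Scr 153 and 152), *NR1H2* (81.1 and 28.4, Scr 46.6 and 48.3), *PPARD* (95.4 and 45.2, Scr 62.7 and 62.8), *ESRRA* (149 and 47.3, Scr 74.2 and 85.2) and *NR0B2* (237 and 92.5, Scr 195 and 232) did likewise. *NR2C2* (11 and 69.6 CPM, Scr 33.3 and 36.8), *NR6A1* (67.6 and 107, Scr 94 and 93.1) and *NR1D2* (4.51 and 11.8, Scr 5.61 and 6.78) were low in replicate 1 and high in replicate 2. For these 9 messages the Scr libraries lie inside the miR-23a KO range. *NR5A2* (9.93 and 12.2 CPM, Scr 4.17 and 7.92) was higher in both miR-23a KO libraries, by 0.91 on the log2 scale (standard error 0.61, and 0.48 without Scr replicate 1 or 1.44 without Scr replicate 2), and *VDR* (1.45 and 1.15, Scr 2.05 and 3.16) was lower in both, by -0.97 (standard error 0.73, and -0.63 without Scr replicate 2). *NR1H4* (8.48 and 13.8 CPM, Scr 7.8 and 17.3) and *RARG* (3.44 and 2.52, Scr 4.38 and 2.48) overlapped with Scr. Excluding *NR4A1*, the 15 other tested receptor genes ranged from -0.54 (*NR1I2*) to 0.95 (*NR3C1*) in log2 fold change.

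Compared directly, the KO groups differed most in *NR5A2* among the tested receptor genes. Its level in miR-27a KO was 0.537% of that in miR-23a KO (95% counting interval 0.0647% to 1.95%), 2 counts in all against 352, and the adjusted p was 0.101 by edgeR's quasi-likelihood test (Benjamini-Hochberg adjusted). It lay between 1.46e-19 and 0.101 in 11 alternatives, 8 of which called *NR5A2*. Without miR-27a KO replicate 1 the ratio was 1.07% (0.129% to 3.89%), and without replicate 2 *NR5A2* was at least 61.9-fold lower in miR-27a KO. Of 31 receptor genes tested, 0 were called higher and 0 lower by that test or at the study's criteria, as for all 13841 genes (0% each way), with 3 higher and 1 lower in miR-23a KO at an unadjusted p under 0.05, against 4.66% and 4.06% of all genes. DESeq2 called 1 higher, *NR5A2*, and 0 lower, against 1.70% and 1.41%. The miR-23a KO libraries were both higher than the miR-27a KO libraries for 5 of the 31, against 19.7% of all tested genes, and both lower for 5, against 19.9%. Among the 5 lower is *NR1I3*, which passed the filter only with miR-27a KO, where its counts were highest, so nothing is concluded from its place. *NR4A3*, not among them, passed the filter only in this comparison. Without miR-23a KO replicate 1 there were 8 called higher and 11 lower (28.5% and 29.3% of all genes), without replicate 2 there were 14 and 11 (33.6% and 34.5%), and without miR-27a KO replicate 2 there were 1 and 0 (0.174% and 0.327%). *NR6A1* was higher in miR-23a KO by 1.23 on the log2 scale and *NR1H4* lower, at -1.28, each called without miR-23a KO replicate 1 (1.5 and -0.99) or replicate 2 (0.87 and -1.66). The filter left out *RXRG*, *RARB*, *NR3C2*, *ESR1*, *PGR*, *ESRRG* and *NR4A2*. Excluding *NR4A1*, the 16 other tested receptor genes ranged from -0.85 (*PPARA*) to 0.43 (*NR3C1*) in log2 fold change. Both comparisons with Scr use the same 2 control libraries, so a shift in those moves both sets of fold changes.

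Receptor genes with a site of the deleted miRNA showed no common direction. In miR-27a KO, 11 of 12 with an ACTGTGA site were tested. Of these, edgeR's quasi-likelihood test called 1 higher (*NR2C2*) and 2 lower (*NR5A2* and *NR2F6*), against 4.91% and 9.12% of all genes. The median log2 fold change of the 11 was 0.05, against -0.20 for the other tested receptor genes. It was 0.07 for all 2111 genes with the site and 0.01 for all genes. In miR-23a KO, 6 of 10 with an AATGTGA site were tested and 0 called by edgeR's quasi-likelihood test or DESeq2, with 0 at an unadjusted p under 0.05. The median of these 6 was -0.11, against 0.23 for the other tested receptor genes, 0.23 for all 2430 genes with the site and 0.16 for all genes. Both miRNAs derive from 1 cluster. By qPCR of its clones the study reports lower miR-27a-3p in miR-23a KO and slightly higher miR-23a-3p in miR-27a KO. Levels of the miRNAs were not analysed here, so each site was also counted in the other KO, with no reading of what those counts mean. In miR-23a KO, 11 receptor genes with an ACTGTGA site were tested and 0 called by edgeR's quasi-likelihood test or DESeq2, again with 0 at an unadjusted p under 0.05 (median 0.28, against 0.06 for the other receptor genes). In miR-27a KO, 6 with an AATGTGA site were tested (median -0.05, against -0.14). Of these, 0 were called higher and 1 lower, *NR6A1*, where 4.91% and 9.12% of all genes were called. Medians of so few genes shift with any 1 of them, and no test was made of the difference.

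Genes that nuclear receptors regulate, and the coregulators that bind them, were counted by the same edgeR test. *NR1H3*, *RARB* and *ESRRA* are receptor genes that also stand in these lists. In miR-27a KO, of 10 tested targets of the glucocorticoid and mineralocorticoid receptors 1 was called higher, 5 lower and 4 neither, where 4.91% of all genes were called higher and 9.12% lower. Their median log2 fold change was -1.22, against 0.01 for all genes, and no test of the list was made. Scr replicate 1 lay above Scr replicate 2 for every tested gene of the list but *G6PC*. The median is not given without either library. The gluconeogenic enzyme gene *PCK1* had 1 and 1 counts in miR-27a KO and 70 and 57 in Scr, a ratio of 1.4% (95% counting interval 0.168% to 5.17%). *SGK1*, a kinase of sodium transport, went from 15.3 and 13.4 CPM in Scr to 3.69 and 4.03, the metallothionein *MT2A* from 414 and 111 to 34.2 and 37.3, and the chaperone *FKBP5* from 49.2 and 46.5 up to 67.8 and 73.3. None of these 4 overlapped between the groups. Their adjusted p-values by edgeR's quasi-likelihood test (Benjamini-Hochberg adjusted) were 0.00701, 0.0102, 0.0411 and 0.0289. *MT2A* rests on 2 Scr libraries that lie apart: its log2 fold change was -2.90, -1.64 without Scr replicate 1 and -3.56 without Scr replicate 2. The fit of all 6 libraries kept *PCK1* and lost the other 3, and with no filter on low counts *MT2A* was not called. Offsets for GC content and length ended the call of *FKBP5* (log2 fold change 0.31, against 0.54 without them), as did leaving out miR-27a KO replicate 1 (log2 fold change 0.60) or replicate 2 (0.50), and *SGK1* was not called without replicate 2 (-1.96).

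Retinoic acid, vitamin D and thyroid hormone targets had 0 called higher and 1 lower of 6 by edgeR (median log2 fold change -0.48). DESeq2 called 1 higher and 2 lower of this list. Of all genes, edgeR called 4.91% higher and 9.12% lower, and DESeq2 5.28% and 9.49%. *CYP24A1*, which inactivates vitamin D, was at 75.6 and 58.4 CPM in Scr and 2.97 and 3.55 in miR-27a KO. The miR-27a KO libraries were far below Scr, with a log2 fold change of -4.38. PXR and CAR targets had 0 higher and 1 lower of 8 tested by edgeR (median -0.29), and 0 and 2 by DESeq2. The gene called by edgeR, the drug-metabolizing enzyme *CYP2B6*, had 1 and 3 counts in miR-27a KO, 433 and 237 in Scr and 369 and 254 in miR-23a KO. Its level in miR-27a KO was 0.532% of Scr (95% counting interval 0.144% to 1.37%), 0.267% (0.00674% to 1.49%) without miR-27a KO replicate 2, and it was called in the fit of all 6 libraries, where *CYP24A1* was not. Adjusted p-values by edgeR's quasi-likelihood test (Benjamini-Hochberg adjusted) were 0.00204 for *CYP24A1* and 0.00552 for *CYP2B6*.

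PPAR targets split, with 2 higher and 3 lower of 12 (median log2 fold change 0.20), where 4.91% and 9.12% of all genes were called. The fatty acid carrier *FABP1* rose from 27.3 and 23.4 CPM to 76.7 and 82.1 and the mitochondrial entry enzyme *CPT1A* from 61 and 65.5 to 113 and 107. The transcription factor *CREB3L3* fell from 55.5 and 69.9 CPM to 24.7 and 23.6 and the pantetheinase *VNN1* from 3.97 and 5.57 to 0.363 and 0.24. Adjusted p-values by edgeR's quasi-likelihood test (Benjamini-Hochberg adjusted) were 0.00521, 0.0107, 0.00857 and 0.0107, and none of these 4 was called in the fit of all 6 libraries. *CPT1A* was not called without miR-27a KO replicate 1 (log2 fold change 0.75) or replicate 2 (0.83), against 0.78 with both. Coactivators and corepressors had 2 higher and 1 lower of 20 tested (median 0.36), against these same shares of all genes. DESeq2 called 3 higher and 1 lower of them, against 5.28% and 9.49% of all genes. *NCOA4* was at 37.1 and 57.8 CPM in Scr and 113 and 146 in miR-27a KO, and the paired PGC-1 coactivators moved oppositely: *PPARGC1A* was at 1.09 and 2.96 in Scr and 9.81 and 9.2 in miR-27a KO, with 0 and 0 counts in miR-23a KO, and *PPARGC1B* at 4.92 and 3.09 in Scr and 0.787 and 0.301 in miR-27a KO. Log2 fold changes were 1.43, 2.21 and -2.88, and *PPARGC1A* stood at 3.09 without Scr replicate 2 and *PPARGC1B* at -3.71 without miR-27a KO replicate 1. All 3 lost the call in the fit of all 6 libraries, both PGC-1 genes also with no filter on low counts, *PPARGC1A* without miR-27a KO replicate 1 (2.17) or 2 (2.27) and *PPARGC1B* without replicate 2 (-2.34).

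Other lists had at most 1 call. FXR and SHP targets had 0 calls by edgeR's quasi-likelihood test among the 6 tested (median log2 fold change -0.46) and estrogen-related receptor targets 0 of 10 (-0.13). At an unadjusted p under 0.05 there were 1 higher and 1 lower in the former and 0 and 4 in the latter, where 13.8% of all genes were higher and 18.4% lower, and DESeq2 called 0 in both. Of 11 LXR targets 0 were called higher and 1 lower (median -0.23), and of 13 clock genes 1 higher and 0 lower (0.06). The edgeR test called 4.91% of all genes higher and 9.12% lower. The LXR target *LPCAT3*, a phospholipid-remodelling enzyme, was at 169 and 217 CPM in Scr and 130 and 130 in miR-27a KO, and the clock output gene *HLF* at 151 and 150 against 206 and 202. Neither overlapped between the groups, and both lost the call in the fit of all 6 libraries, with offsets for GC content and length (log2 fold change -0.47 for *LPCAT3* and 0.22 for *HLF*, against -0.59 and 0.42) and without miR-27a KO replicate 1 (-0.58 and 0.42) or replicate 2 (-0.58 and 0.45), *LPCAT3* also with no filter on low counts. In miR-23a KO, 0 of 95 tested genes in these lists were called by edgeR's quasi-likelihood test, with 1 higher and 6 lower at an unadjusted p under 0.05 (0.856% and 1.55% of all genes) and 0 and 2 called by DESeq2 (0.0320% and 0.377%). Median log2 fold changes were 0.08 for coregulators, 0.17 for FXR and SHP targets, -0.12 for PXR and CAR targets, -0.12 for LXR targets, 0.13 for PPAR targets, -0.25 for glucocorticoid and mineralocorticoid targets, -1.23 for retinoic acid, vitamin D and thyroid hormone targets, -0.02 for clock genes and -0.02 for estrogen-related receptor targets, beside 0.22 for the receptors and 0.16 for all genes.

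**Figure D5:**
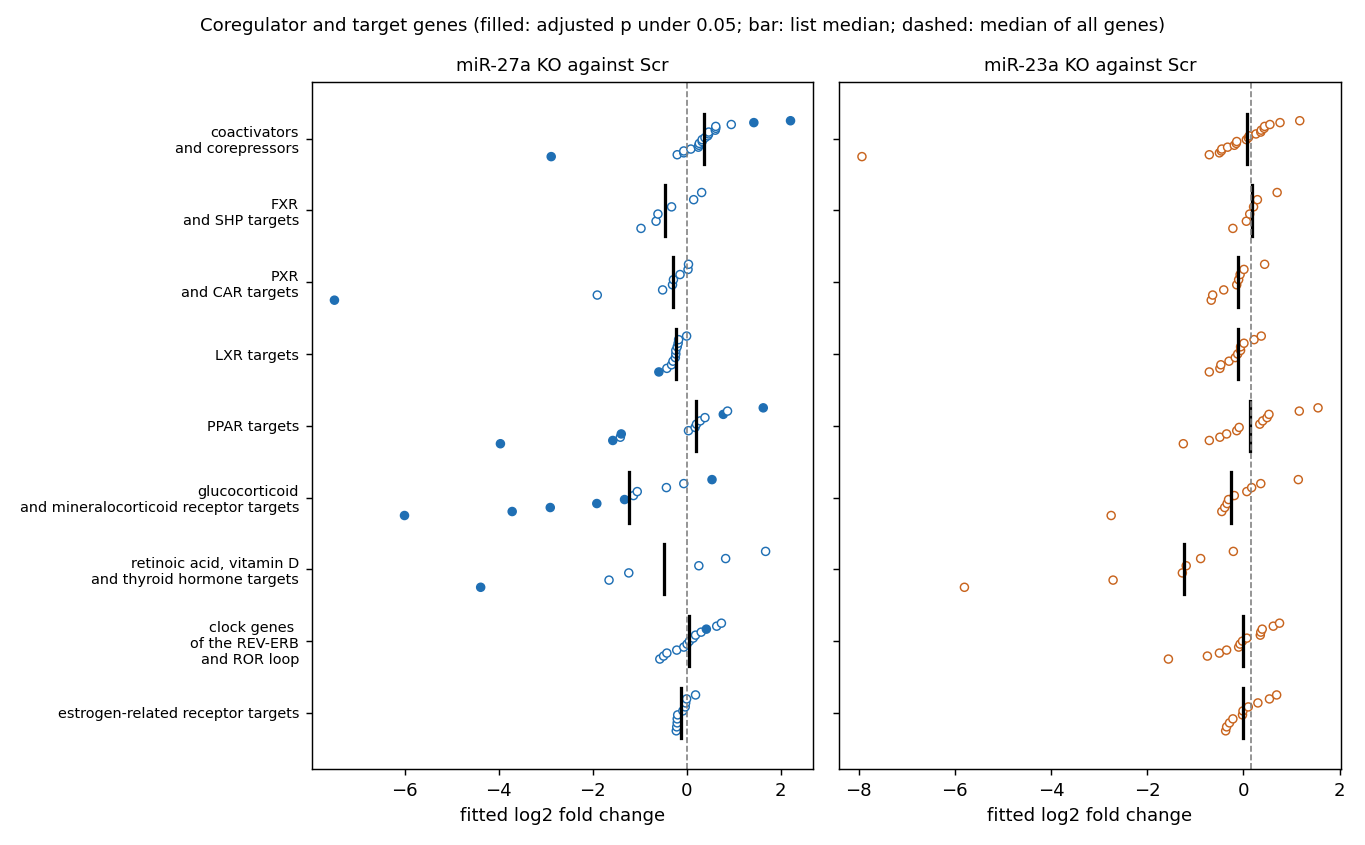
Log2 fold changes against Scr of the tested genes in each coregulator and target list.

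The 10 hepatocyte-like marker genes were present in all libraries and summed to 37300 and 43700 CPM in Scr, 32400 and 32300 in miR-27a KO and 43000 and 38100 in miR-23a KO. In miR-27a KO, edgeR's quasi-likelihood test called 1 of the 10 higher and 4 lower, against 4.91% and 9.12% of all genes. The called markers are named here after their values were seen. *AFP* was at 2550 and 3890 CPM in Scr and 184 and 191 in miR-27a KO (log2 fold change -4.11), *ALB* at 10200 and 15000 against 2090 and 2150 (-2.59), *FGB* at 25.1 and 47.2 against 8.66 and 9.02 (-2.05), *APOA2* at 2650 and 3050 against 1800 and 1760 (-0.70) and *TF* at 3260 and 2250 against 6550 and 6740 (1.25). None of these overlapped between the groups. Of the 5, *AFP* alone kept its call in the fit of all 6 libraries. *APOA2* lost it without miR-27a KO replicate 1 (-0.70) or replicate 2 (-0.67), and *TF* without replicate 2 (1.24) and with offsets for GC content and length (0.92). The endothelial-like list summed to between 3.36 and 6.97 CPM per library, and *COL1A1*, from the fibroblast-like list, reached 0.137 CPM. Of the leukocyte-like list, *LYZ* was at 371 and 406 CPM in Scr, 1500 and 1560 in miR-27a KO and 128 and 187 in miR-23a KO (log2 fold change 1.96 in miR-27a KO, called), beside 1 or 2 counts per library of *PTPRC*. One label field names the cells triple-negative liver cancer cells. From the breast epithelial-like list, *GATA3* had 0 to 2 counts in each library and *ELF5* was at 5.54 and 8.93 CPM in Scr, 19.7 and 17.3 in miR-27a KO and 0.306 and 1.32 in miR-23a KO. *ELF5* was called higher in miR-27a KO (log2 fold change 1.34) but not without replicate 1 (1.25) or replicate 2 (1.44), nor with no filter on low counts, and neither *LYZ* nor *ELF5* was called in the fit of all 6 libraries.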

How the data were processed

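Bulk RNA-seq of HepG2 cells was analysed in 6 libraries, 2 each from the scramble control (Scr), miR-27a KO and miR-23a KO cells, grouped by sample title. The authors deposited expected counts for 20026 genes, with no scaling for depth or length, under column headers that say FPKM. That unit was read from the column sums, which differ between libraries, and from the share of whole values (42.6% to 51.0%). The labels name HISAT, StringTie, Cufflinks and GATK without roles, and state no genome build. Library totals were 14891283 and 14405247 (Scr), 15850575 and 15947316 (miR-27a KO), and 16515266 and 15930762 (miR-23a KO), with TMM factors of 0.792 to 1.14. The receptor genes summed to between 1000 and 1780 CPM. Among genes counted 40 times or more in a pair, squared differences between the 2 libraries were 1.81 times sampling noise in miR-27a KO, 12.1 times in Scr and 123 times in miR-23a KO.

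Counts were rounded, filtered with filterByExpr and scaled by TMM, and each pair of groups was fitted alone with edgeR 4.0.16 (glmQLFit and glmQLFTest, R 4.3.3). The Benjamini-Hochberg adjustment of p-values covered all genes tested, and a gene was called at an adjusted p under 0.05. The study's criteria, a change of over 1.5-fold at an adjusted p under 0.001, were counted beside it. Standard errors were derived from the fold change and the F statistic. CPM used TMM factors over all 6 libraries, and levels per kilobase the longest transcript of GENCODE release 29. Ratios of small counts carry an exact binomial interval of 95%, and a group at 0 was set to a floor of 3 counts over the group. Seed sites were exact matches to bases 2 to 8 of each miRNA in the longest annotated 3'-UTR. The scripts were tested on simulated data in which some genes were changed.

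The receptor genes and the coregulator, target and marker lists were chosen with earlier results of these data known. Values in every library are given for receptor genes called in any comparison, for those over 2-fold from Scr without overlap, for the 5 highest per kilobase in Scr, and for those with a site of the deleted miRNA and a change over 1.5-fold. From each list up to 4 genes are named, those called with the lowest adjusted p. *NR4A1* was added after its values were seen. The alternatives were median-ratio size factors, the DESeq2 1.42.0 Wald test, no low-count filter, all 6 libraries in one fit, the replicate number as a block, loess offsets for GC content and length (span 0.5, degree 2) without and with the block, and each library left out in turn. Alternatives for *NR4A1*, for the other receptor genes, for the named list genes and for the called marker genes were chosen after seeing the data. The miRNA genes themselves, *ABCB11*, *ABCG1* and several marker genes (*COL1A2*, *COL3A1*, *DCN*, *LUM*, *KDR*, *KRT5* and *KRT14*) were not analysed here, and 1 gene planned for the target lists is not reported here. Every value column of the file was used (0 not used).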

Additional observations from a re-analysis of the deposited data

Results flagged for a closer look

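Both results here concern receptor genes in which the 2 KO groups lay on opposite sides of Scr, every library of one above and every library of the other below both control libraries. The share of all genes with this pattern is not given, so whether receptor genes show it more often is not known. *NR5A2*, which encodes LRH-1, was above Scr in miR-23a KO and near 0 in miR-27a KO, and the fitted log2 difference between the KO groups was 7.33. With 0 and 2 counts in miR-27a KO that fitted value depends on the prior count and is no bound. *NR4A1*, an immediate early gene, was at 21.9 and 20.2 CPM in miR-23a KO, 20.2 and 11.3 in Scr and 10.8 and 9.56 in miR-27a KO, with a log2 difference between the KO groups of 1.03 (standard error 0.34). The lower miR-23a KO value of *NR4A1* and the upper Scr value are equal to the 3 digits printed. Against Scr the log2 fold change of *NR4A1* in miR-23a KO was 0.45, 0.91 without Scr replicate 1 and 0.09 without Scr replicate 2. The direct comparison of the KO groups is the test of both differences, and neither passed the threshold, with adjusted p-values of 0.101 and 0.459 in edgeR's quasi-likelihood test (Benjamini-Hochberg adjusted). Among 11 alternatives *NR4A1* was called only without miR-23a KO replicate 1 or replicate 2. Its log2 difference lay between 0.9 and 1.12.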

How the results depend on the processing

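The number of receptor genes called moved with the model and with single libraries, and the cause was not tested. In miR-27a KO against Scr (1 higher and 5 lower), the replicate block gave 2 higher and 7 lower, where 5.97% and 10.2% of all genes were called. The GC content and length offsets gave 1 and 3 (6.40% and 8.45% of all genes), and these offsets with the block 3 and 4 (8.32% and 10.3%). DESeq2 gave 2 higher and 5 lower (5.28% and 9.49%), and the fit of all 6 libraries 0 higher and 1 lower (0.0212% and 0.431%). Leaving out 1 library gave 0 to 6 higher and 3 to 11 lower. In miR-23a KO against Scr (0 and 0), leaving out 1 library gave 0 to 5 higher and 0 to 2 lower. Between the KO groups (0 and 0), DESeq2, the fit of all 6 libraries and the block gave 1 higher and 0 lower, the offsets 2 and 0, the offsets with the block 2 higher and 3 lower, and leaving out 1 library 0 to 14 higher and 0 to 11 lower. Of all genes, the fit of all 6 libraries called 0.770% each way between the KO groups, the block 1.52% and 1.37%, and DESeq2 1.70% and 1.41%. These shares were 1.17% and 1.24% with the offsets, and 4.66% and 4.40% with the offsets and the block. The labels do not pair libraries by replicate number, and replicate 1 minus replicate 2 differences correlated between groups by r of 0.15, 0.01 and 0.02 over 14164 genes. Of 484 log2 fold changes of named receptor genes under an alternative, 387 kept their sign and their side of the threshold, 48 passed it anew, 15 lost it and 34 changed sign. In miR-23a KO against Scr the block gave *NR2C2* -0.29. The offsets gave *NR2C2* -0.31, *NR1D2* -0.05 and *NR6A1* 0.15, and with the block -0.48, -0.06 and 0.15. In miR-27a KO against Scr the offsets gave *RXRA* 0.08 and *ESRRA* 0.23, and with the block 0.08 and 0.25. Between the KO groups *ESRRA* went to -0.17 and -0.18. Leaving out 1 library, the ranges that crossed 0 in miR-23a KO against Scr were *NR0B2* -1.21 to 0.13, *NR1H4* -0.63 to 0.56, *NR1H2* -0.74 to 0.75, *PPARD* -0.47 to 0.58, *RXRA* -0.36 to 0.86, *RARG* -0.53 to 0.26, *NR1D2* -0.48 to 0.93, *ESRRA* -0.75 to 0.88, *NR2C2* -1.69 to 0.99, *NR2F6* -0.57 to 1.19 and *NR6A1* -0.49 to 0.19. In miR-27a KO against Scr it was *ESRRA*, -0.12 to 0.07. Between the KO groups they were *NR0B2* -0.25 to 1.14, *NR1H2* -0.51 to 1.04, *RXRA* -0.21 to 1.06, *NR1D2* -1.23 to 0.12, *ESRRA* -0.77 to 0.91, *NR2C2* -2.44 to 0.19 and *NR2F6* -0.06 to 1.75. Of the receptor genes called in miR-27a KO, *NR5A2* was called in 11 of 11 alternatives, *NR0B2* and *NR6A1* in 10, *NR2C2* in 8, and *PPARD* and *NR2F6* in 6. Of 165 values of the named coregulator and target genes, 131 kept sign and side, 34 lost the call and 0 changed sign. Of 77 values of the called marker genes, 64 kept both, 13 lost the call and 0 changed sign. The 7 receptor genes left out of all 3 comparisons had too few counts for a test at this depth.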
